A study of Homo sapiens with 12 samples.

Results

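The region described is a proximal stretch of chromosome 19, chr19:281040-17075625 on GRCh38, in HLE-B3 cells. Its members were chosen by position: every gene of the deposited table whose chromosome is 19 and whose start falls between these bases, which gave 913 of 58735 genes. The stretch was selected on its low level in Atg7KO against WT cells in these same libraries, so the Atg7KO against WT values at 0h and at 12h are given as a description and were not tested. The other 2046 genes of chromosome 19 are set beside it.

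HLE-B3 is a human lens epithelial line that was made immortal. RNA was sequenced in 12 libraries, in 4 groups of 3 labelled replicates: WT and Atg7KO cells left untreated and collected at 0h, and WT and Atg7KO cells given 200 μM H2O2 and collected at 12h. The knockout was made in the same line with CRISPR/Cas9 and a guide RNA against ATG7, followed by puromycin selection and the picking of individual clones, and the labels do not say which clone or clones were sequenced. Since there is no untreated 12h group, H2O2 and 12 h in culture cannot be told apart, and a clone and the loss of ATG7 cannot be told apart either. The study's methods call the replicates biological and do not say whether each was a separate culture, so p-values measure the spread between these libraries, which may be technical.

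ATG7 is an E1-like enzyme that starts the conjugation steps by which autophagosomes form, and H2O2 is an oxidant used on lens epithelial cells as a model of the stress behind cataract. Chromosome 19 is a gene-dense and GC-rich human chromosome whose short arm carries, among many housekeeping genes, immediate early genes, stress genes, the ICAM adhesion molecules and clusters of KRAB zinc finger genes. Promoters of quickly induced genes often hold a TATA box, the letters that bind heat shock factor mark chaperone genes, and NF-κB sites mark many inflammatory genes.

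The promoters of 4 members are shown. JUNB, GADD45B and DNAJB1 were picked from the members counted below as rising with H2O2 in WT cells alone. ICAM1 was picked as the ICAM gene of the stretch with the highest level. The promoters are RefSeq windows on GRCh38.p14 from 250 bases before to 50 bases after the annotated start, written 5′ to 3′ on the gene's strand. They lie at chr19:12791236-12791535 on the plus strand for JUNB, chr19:2475877-2476176 on the plus strand for GADD45B, chr19:14518348-14518647 on the minus strand for DNAJB1 and chr19:10270870-10271169 on the plus strand for ICAM1. Of the 3 windows given for DNAJB1, the one with most heat shock matches is shown. Capitals mark the letters TATAAA, as in a core promoter box, in JUNB, GADD45B and ICAM1. They mark GAANNTTC, a heat shock element, in DNAJB1 and GGAAATTCC, an NF-κB site, in ICAM1, and both strands were searched.
JUNB: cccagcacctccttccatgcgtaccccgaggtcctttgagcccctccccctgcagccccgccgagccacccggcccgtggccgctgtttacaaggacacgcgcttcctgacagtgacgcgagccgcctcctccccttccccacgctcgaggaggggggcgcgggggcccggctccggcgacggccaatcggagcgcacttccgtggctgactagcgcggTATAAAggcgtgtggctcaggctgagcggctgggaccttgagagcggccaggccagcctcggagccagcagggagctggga
GADD45B: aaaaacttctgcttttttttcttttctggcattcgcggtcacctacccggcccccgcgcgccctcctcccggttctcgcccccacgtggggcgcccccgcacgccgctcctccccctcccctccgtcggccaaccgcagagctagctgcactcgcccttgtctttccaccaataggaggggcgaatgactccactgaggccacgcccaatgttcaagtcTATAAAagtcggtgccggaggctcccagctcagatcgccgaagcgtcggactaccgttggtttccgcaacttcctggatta
DNAJB1: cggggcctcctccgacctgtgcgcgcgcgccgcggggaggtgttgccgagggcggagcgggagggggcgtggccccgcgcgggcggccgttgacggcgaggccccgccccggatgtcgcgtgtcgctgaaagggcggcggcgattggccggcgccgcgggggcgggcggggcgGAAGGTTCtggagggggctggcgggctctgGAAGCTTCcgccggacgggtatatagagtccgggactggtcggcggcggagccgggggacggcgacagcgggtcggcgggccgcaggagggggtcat
ICAM1: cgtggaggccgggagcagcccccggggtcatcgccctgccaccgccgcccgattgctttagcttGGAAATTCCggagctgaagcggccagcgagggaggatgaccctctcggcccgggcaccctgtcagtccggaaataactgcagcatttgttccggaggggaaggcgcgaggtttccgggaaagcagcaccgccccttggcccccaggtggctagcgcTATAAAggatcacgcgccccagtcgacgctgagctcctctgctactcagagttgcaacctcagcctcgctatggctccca

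The TATAAA match began 31 bases before the start in both JUNB and GADD45B and 30 bases before it in ICAM1. The 2 heat shock matches of DNAJB1 began 77 and 47 bases before its start, and the NF-κB letters of ICAM1 began 186 bases before its start. TATAAA was held by 7.14% of the 504 windows that matched members by symbol, against 11.5% of all 35116 windows. The heat shock letters were in 4.17% of the members' windows and 6.77% of all, and the NF-κB letters in 0.794% and 0.461%. The GC box GGGCGG was in 71.0% of the members' windows and 45.0% of all, and CCAAT in 38.5% and 34.6%. The members' windows had a median GC content of 65.0% against 58.7% over all windows. These matches describe letters in the windows and were not set against binding.

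Counted reads came to 15602183 to 17659496 per library, and the untreated Atg7KO replicate 1 stood apart, with a mean correlation of 0.971 with its group against 0.980 for its partners and 0.989 in the other groups. The counts and medians of the members at 0h are therefore also given without it, and other values at 0h rest on all 3 replicates unless stated. ATG7 itself was not lower in the knockout, at 2.55 ± 0.313 FPKM in WT and 3.55 ± 0.205 in Atg7KO cells at 0h and 1.96 ± 0.0411 and 2.19 ± 0.137 at 12h (SD, n = 3 each). Reads over the whole gene do not check an edit inside it, and the study checked its picked clones for the deletion by western blot. FPKM is the number of fragments scaled to gene length and to the library's total. Of 12 lens epithelium markers, 4 were above 1 FPKM in every library, namely VIM, CDH2, GJA1 and SIX3, the last at most 3.21 FPKM. In no library were 6 of them above 1 FPKM, among these FOXE3, PROX1, MAF and CRYAA. PAX6 reached at most 1.35 FPKM, and the crystallin marker CRYAB was below 2 FPKM in every group mean. Of 5 fibroblast-like markers, 3 were above 1 FPKM in every library and 2 in none. Their summed level was 658 FPKM in WT and 465 FPKM in Atg7KO cells at 0h and 297 and 261 FPKM at 12h, most of it COL1A1. The lens markers summed to 515, 480, 447 and 357 FPKM in the same order, most of it VIM and CDH2 (322 and 163 FPKM in WT at 0h). The part of this in the results was not tested. The 3 immune and 2 endothelial markers never passed 1 FPKM.

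Of the 913 members, 192 had no read in any library and 302 had reads, at most 25 in a library, but too few to be tested in any comparison. The 419 members tested in at least 1 comparison comprised 386 tested at 0h and 405 tested at 12h, with 380 tested at both. Protein-coding genes made up 503 members, and 357 of these were tested at 12h. Antisense RNAs (111), processed pseudogenes (60), long intergenic RNAs (48) and miRNA genes (41) made up most of the others. Reads of overlapping, antisense or near-identical genes may be shared between them.

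The stretch took a smaller share of all counted reads in every Atg7KO library than in any WT library. At 0h it took 3.0, 3.10 and 3.06% of reads in the WT replicates and 2.39, 2.42 and 2.38% in the Atg7KO replicates. At 12h it took 3.22, 3.20 and 3.11% in WT and 2.12, 2.13 and 2.15% in Atg7KO cells. The group means were 3.06 ± 0.0519% and 2.40 ± 0.0188% at 0h and 3.17 ± 0.0560% and 2.14 ± 0.0166% at 12h (SD, n = 3 each). The lines do not overlap at either time, and the Atg7KO share was lower at 12h than at 0h. Over the rest of chromosome 19 the shares were 3.54 ± 0.0540% and 3.75 ± 0.273% at 0h and 3.65 ± 0.0290% and 3.48 ± 0.00610% at 12h, and the untreated Atg7KO replicate 1 was highest there at 4.06%. A share of reads does not tell fewer RNA molecules per cell from fewer cells that make them.

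**Figure D1:**
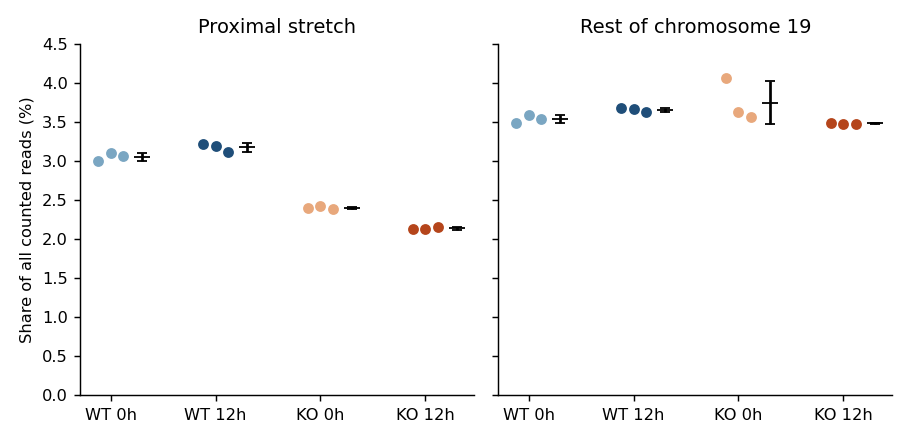
Share of all counted reads (%, axis from 0) that fell on the proximal stretch and on the rest of chromosome 19, by library; points are the 3 replicates of each group and the bar beside them is the mean ± SD. On the stretch the WT libraries sit between 3.0 and 3.22% and the Atg7KO libraries between 2.12 and 2.42%, while on the rest of the chromosome the groups lie close together.

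Gene by gene, the difference was broad rather than carried by a few members. At 0h the median log2 fold change of the 386 tested members in Atg7KO against WT cells was -0.33, a fold of 0.794, with quartiles of -0.62 and -0.10, and 315 members (81.6%) were below 0. Over the rest of chromosome 19 the median was 0.03 with 47.3% of 719 genes below 0, and over all 15357 genes it was 0.01. Without the untreated Atg7KO replicate 1 the median of the members was -0.40. At 12h the median of the 405 tested members was -0.59, a fold of 0.664, with quartiles of -0.92 and -0.28, and 352 members (86.9%) were below 0. The rest of chromosome 19 had a median of -0.08 with 56.5% of 744 genes below 0, and all 15909 genes had 0.00.

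The number of members past the threshold, an adjusted p under 0.01 in edgeR's quasi-likelihood test, was counted beside the share of all genes that passed it. At 0h, 37 members were called lower and 6 higher, where 3.28% of all genes tested were called lower and 4.42% higher. At 12h, 284 were called lower and 21 higher, where 27.9% of all genes were called lower and 27.7% higher. Of the 284, 83 were lower by more than 1 on the log2 scale, and 4 of the 21 were higher by more than 1. At 0h all 3 Atg7KO libraries were below all 3 WT libraries for 200 members and above them for 16, where all genes gave 23.0% and 22.3%. At 12h these counts were 305 and 26, where all genes gave 33.6% and 34.5%. These shares describe the comparison that the stretch was chosen on, and nothing is read from them. The count at 0h rose from 37 to 223 of 399 tested without the untreated Atg7KO replicate 1. Calls over all genes rose as well, to 2843 lower and 2891 higher of 15848 tested. The members' count was 10 and 11 without replicates 2 and 3 of that group and 7 without any 1 of the untreated WT replicates.

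Most members kept their side of 0 between the times. Of the 380 members tested at both, 280 (73.7%) were below 0 at both and 17 above at both, against 196 (28.4%) below and 187 above of 691 genes on the rest of the chromosome. Of the 37 members called lower at 0h, 33 were called lower at 12h as well, as were 268 (70.5%) of all 380. Without the untreated Atg7KO replicate 1 these were 183 of 220, beside 271 (70.6%) of the 384 then tested at both. The log2 fold changes at 0h and 12h, which share no library, had a Pearson correlation of 0.54 across the 380 members and 0.55 across the rest of the chromosome (0.60 and 0.64 without that replicate). For 254 of the 380, the value at 12h was below that at 0h.

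The difference was spread along the stretch but was uneven. In each of 17 bins of 1 Mb with at least 10 genes, the median log2 fold change was below 0 at both times, from -0.53 to -0.07 at 0h and from -0.79 to -0.04 at 12h. Without the untreated Atg7KO replicate 1 all 17 were also below 0 at 0h, from -0.52 to -0.13. The lowest bin at 12h was the one from 2 to 3 Mb, which holds GADD45B, and the bin nearest 0 was the one from 15 to 16 Mb, which holds NOTCH3, CYP4F2 and UCA1. In the bin from 15 to 16 Mb, 6 of 12 tested members were below 0 at 12h. On the rest of the chromosome 30 bins ranged from -0.64 to 0.36 at 0h, with 13 below 0, and from -0.47 to 0.38 at 12h, with 22 below 0. The median of the last 2 Mb of the stretch was -0.21 at 0h and -0.25 at 12h, and that of the next 2 Mb beyond it was 0.18 and -0.15.

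**Figure D2:**
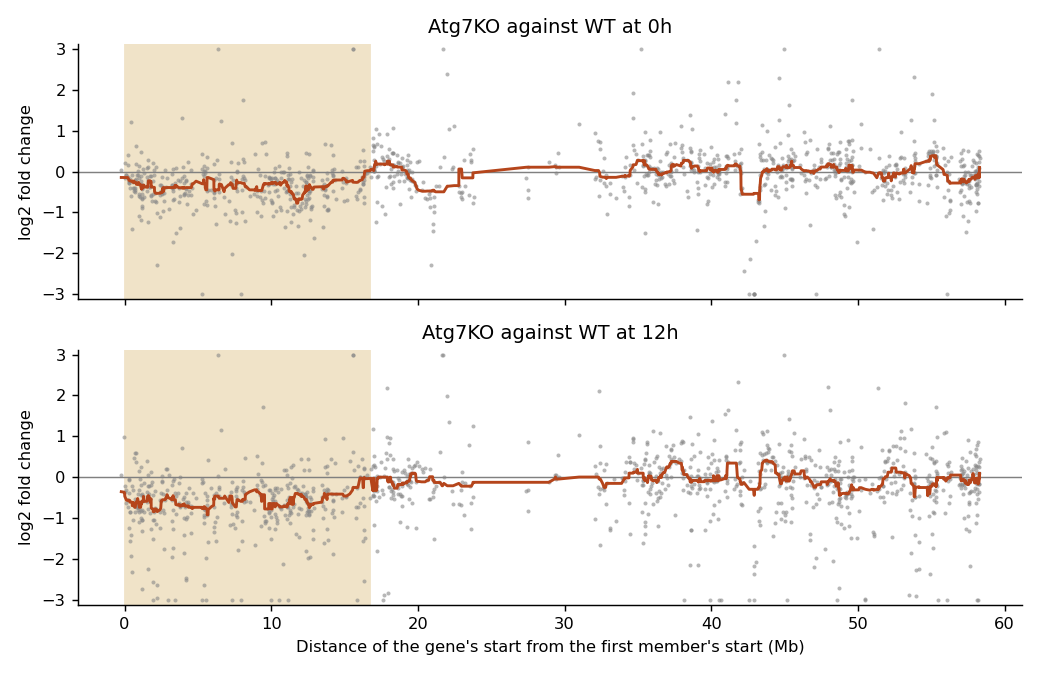
Log2 fold change of Atg7KO against WT cells for each tested gene of chromosome 19, at 0h (top) and 12h (bottom), by distance in Mb of the gene's start from the first member's start; points are genes, the line is a running median of 25 genes, and the shaded band is the stretch. Points beyond 3 on the log2 scale are drawn at the edge (15 at 0h and 31 at 12h). The line stays below 0 through most of the band and lies on both sides of 0 beyond it.

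At the ends of the stretch single genes lay on both sides of 0. The first tested members were PLPP2, a lipid phosphate phosphatase, with log2 fold changes of 0.20 at 0h and -0.36 at 12h, MIER2 (-0.15 and -0.22), C2CD4C (-0.10 and -0.30) and SHC2 (-0.08 and -0.62). The last were AC024075.1 (-0.77 and 0.20), TMEM38A (-0.06 and -1.48), SIN3B, a scaffold of histone deacetylase complexes (-0.05 and 0.05), and HAUS8, an augmin subunit (0.10 and -0.52). Just outside, MYO9B had -0.14 and 0.20, USE1 0.83 and -0.43, OCEL1 0.66 and -0.45, and NR2F6 0.50 and 0.26. Before the stretch only WASH5P (0.05 and 0.06) and AC016588.2 (0.98 at 12h, not tested at 0h) were tested, both below 1 FPKM in every group. The last tested members and their outer neighbours thus overlap in value.

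The members that were lowest at 12h among those above 1 FPKM in both lines include an immediate early gene, a DNA damage gene and a chaperone. GADD45B, a growth arrest and DNA damage inducible gene at chr19:2476122-2478259, had 95.3, 84.1 and 99.6 FPKM in WT and 15.6, 15.1 and 14.0 FPKM in Atg7KO cells at 12h, a log2 fold change of -2.65 ± 0.06 (SE). At 0h it had 31.5, 32.0 and 30.4 FPKM in WT and 19.6, 14.2 and 13.1 FPKM in Atg7KO cells, a log2 fold change of -1.01 ± 0.15. The lines do not overlap at either time, and the WT values differ more between the times than the Atg7KO values.

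JUNB, an AP-1 transcription factor at chr19:12791496-12793315, had 55.8, 58.1 and 58.8 FPKM in WT and 74.8, 55.1 and 57.0 FPKM in Atg7KO cells at 0h. At 12h it had 232, 227 and 205 FPKM in WT and 55.0, 57.0 and 55.9 FPKM in Atg7KO cells. Its lines overlapped at 0h (0.11 ± 0.13, and -0.03 without the untreated Atg7KO replicate 1) and were apart at 12h (-1.99 ± 0.04).

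DNAJB1, an HSP40 co-chaperone at chr19:14514770-14529770, had 61.4, 60.1 and 63.9 FPKM in WT and 45.5, 44.9 and 43.0 FPKM in Atg7KO cells at 0h. Its 12h values were 204, 173 and 215 FPKM in WT and 53.3, 53.5 and 53.9 FPKM in Atg7KO cells, with log2 fold changes of -0.48 ± 0.09 at 0h and -1.89 ± 0.09 at 12h. DNAJB1 was lower at both times with no overlap. Others among the lowest 10 at 12h were NRTN, the neurotrophic factor neurturin (-1.98 ± 0.24), FBXW9, an F-box protein (-1.81 ± 0.16), the ribosomal protein gene RPS28 (-1.57 ± 0.06), the adhesion molecule gene ICAM5 (-1.52 ± 0.08), AMH, anti-Müllerian hormone (-1.50 ± 0.07), and STX10, a syntaxin (-1.50 ± 0.07).

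**Figure D3:**
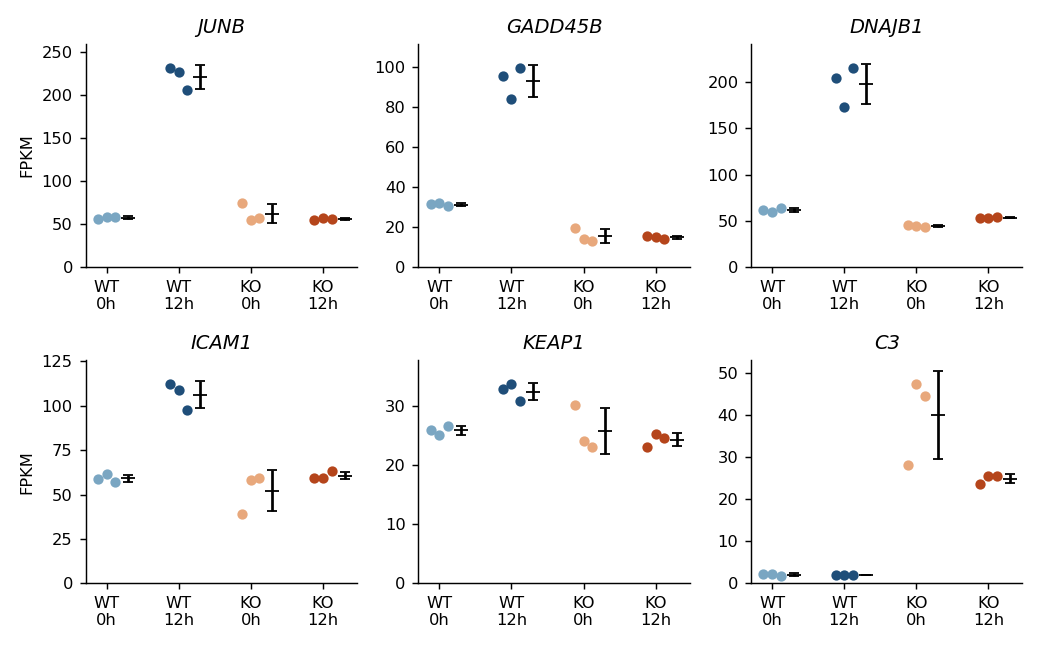
FPKM (axes from 0, one scale per gene) of JUNB, GADD45B, DNAJB1, ICAM1, KEAP1 and C3 in each library; points are the 3 replicates of a group and the bar beside them is the mean ± SD. JUNB, GADD45B and DNAJB1 are high in WT at 12h alone, ICAM1 and KEAP1 are highest there, and C3 is high in both Atg7KO groups.

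A minority of members were higher in Atg7KO cells. The member furthest above WT among those past 1 FPKM in both lines was C3, complement component 3, at chr19:6677704-6730562. It had 2.16, 2.28 and 1.67 FPKM in WT and 28.1, 47.3 and 44.4 FPKM in Atg7KO cells at 0h, and 1.97, 2.11 and 1.90 against 23.6, 25.5 and 25.5 FPKM at 12h. Every Atg7KO value was above every WT value at both times, with log2 fold changes of 4.29 ± 0.25 and 3.64 ± 0.06. NOTCH3, a Notch receptor, was 4.32, 5.05 and 4.34 FPKM in WT and 9.15, 8.57 and 9.27 FPKM in Atg7KO cells at 12h, a log2 fold change of 0.97 ± 0.06, while at 0h it was -0.26 ± 0.31 with all 3 replicates and 0.05 ± 0.07 without the untreated Atg7KO replicate 1. PODNL1 (0.93 ± 0.12), EBI3, a cytokine subunit (0.72 ± 0.15), CYP4F2 (0.61 ± 0.16) and the lipid transporter gene ABCA7 (0.60 ± 0.12) were the next highest at 12h. Besides C3, the members called higher by more than 1 were the pseudogene ZNF812P (1.72) and the long non-coding RNAs LINC01835 (3.78) and UCA1 (4.61), which lie below 1 FPKM in WT cells. In the other direction CERS4, a ceramide synthase gene, had 1.18, 1.39 and 1.20 FPKM in WT and 0.0719, 0.0750 and 0.0284 FPKM in Atg7KO cells at 12h (-4.40 ± 0.32).

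Grouped by role, the median of each of 11 lists was below 0 at 12h, where the median of all tested genes was 0.00. The lists are counted beside the 27.9% of all genes and the 70.1% of tested members called lower at 12h, and the 27.7% and 5.19% called higher, and nothing particular to a list is read from its count. Calls at 0h depend on the untreated Atg7KO replicate 1, so each count at 0h is also given without it. At 0h, 9.59% of tested members and 3.28% of all genes were called lower. Without that replicate, 223 of 399 members and 2843 of 15848 genes were. In transcription and chromatin, 23 of 33 tested members were called lower and 1 higher, with a median log2 fold change of -0.37 (5 lower and 0 higher at 0h, median -0.41, and 22 and 0, median -0.33, without that replicate). SMARCA4, the BRG1 ATPase of SWI/SNF remodellers, had 20.9, 21.7 and 21.4 FPKM in WT and 9.28, 12.0 and 12.0 FPKM in Atg7KO cells at 0h and 14.7, 14.3 and 14.2 against 11.3, 12.2 and 11.8 FPKM at 12h. The lines were further apart at 0h (-0.94 ± 0.13) than at 12h (-0.30 ± 0.04). DNMT1, the maintenance DNA methyltransferase (-0.50 ± 0.18 and -0.31 ± 0.04), had the same order with all 3 replicates, but had -0.32 ± 0.04 at 0h without the untreated Atg7KO replicate 1, where SMARCA4 had -0.82 ± 0.05. HMG20B was the lowest of the list after JUNB among members above 5 FPKM, at -1.28 ± 0.06 at 12h, and SAMD1 the highest, at 0.28 ± 0.05.

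In RNA processing, 18 of 19 members were called lower and none higher at 12h (median -0.46), while none of the 19 was called in either direction at 0h (median -0.27), and 13 were called lower and 1 higher without that replicate (median -0.25). UBL5, a ubiquitin-like splicing factor, had -1.13 ± 0.06 at 12h and LSM7, a subunit of the ring that binds U6 RNA, -1.04 ± 0.06. ELAVL1, the RNA-binding protein HuR, had -0.54 ± 0.04, PTBP1, a splicing repressor, -0.22 ± 0.04 and CHERP -0.04 ± 0.05. In translation, 11 of 12 were called lower and 0 higher at 12h (median -0.84). EEF2, the elongation factor that moves the ribosome along, was the most abundant named member. Its values were 541, 540 and 552 FPKM in WT and 282, 347 and 341 FPKM in Atg7KO cells at 0h, and 724, 740 and 693 against 454, 480 and 475 FPKM at 12h (-0.75 ± 0.12 and -0.62 ± 0.03). From 0h to 12h EEF2 had a log2 change of 0.40 ± 0.04 in WT and 0.53 ± 0.12 in Atg7KO cells, and the lines did not overlap at either time.

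Members of mitochondrial energy metabolism and import were called lower in 12 of 13 cases at 12h and higher in 0 (median -0.92), against 1 of 14 lower at 0h (median -0.16), or 10 of 14 without the untreated Atg7KO replicate 1 (median -0.44). TIMM13, a small carrier of the intermembrane space, had -1.15 ± 0.06, and C19orf70, a subunit of the cristae junction complex, -1.13 ± 0.08. UQCR11, of respiratory complex III, had -0.13 ± 0.09. In redox and stress, all 11 tested members were called lower at 12h (median -0.74) and 2 at 0h (median -0.31), or 10 without that replicate (median -0.48). KEAP1, the adaptor that marks NRF2 for degradation, had 26.0, 25.2 and 26.6 FPKM in WT and 30.2, 24.2 and 23.1 FPKM in Atg7KO cells at 0h, and 32.9, 33.8 and 30.9 against 23.1, 25.2 and 24.6 FPKM at 12h. Its lines overlapped at 0h (-0.01 ± 0.12, or -0.13 ± 0.05 without that replicate) and not at 12h (-0.43 ± 0.05). GPX4, which reduces lipid peroxides, had -0.74 ± 0.05 at 12h, the peroxiredoxin gene PRDX2 -0.84 ± 0.05, and the chaperone gene CALR -0.64 ± 0.03.

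Of 12 members of autophagy, lysosome and protein turnover, 10 were called lower and 0 higher at 12h (median -0.77), and none at 0h although all 12 were below 0 (median -0.43). Without the untreated Atg7KO replicate 1, 10 were called lower at 0h (median -0.49). ATG4D, a protease of the ATG8 proteins that ATG7 activates, had 9.55, 9.62 and 9.34 FPKM in WT and 7.35, 7.05 and 6.05 FPKM in Atg7KO cells at 0h, and 13.5, 13.3 and 12.6 against 8.51, 8.44 and 9.46 FPKM at 12h. ATG4D thus had all Atg7KO values below all WT values at both times (-0.48 ± 0.11 and -0.58 ± 0.08). UBXN6, a cofactor of the VCP ATPase, had -1.02 ± 0.05 at 12h and the F-box gene FBXL12 -0.95 ± 0.08. STK11, the LKB1 kinase that activates AMPK, had -0.08 ± 0.11 at 0h and -0.82 ± 0.05 at 12h.

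In kinases and signalling, 14 of 24 were called lower and 2 higher at 12h (median -0.36). MAP2K2, the MEK2 kinase, had -0.73 ± 0.04 and PRKACA, the catalytic subunit of protein kinase A, -0.29 ± 0.04. The 2 called higher were NOTCH3 and INSR, the insulin receptor (0.20 ± 0.05). In cell cycle and DNA maintenance 9 of 11 were lower and 0 higher (median -0.67), led by ASF1B, a histone chaperone (-1.27 ± 0.05), and CDKN2D, a cyclin-dependent kinase inhibitor (-0.91 ± 0.12). Membrane traffic and cytoskeleton had 16 lower and 3 higher of 22 (median -0.54), among them the calponin gene CNN1 (-1.13 ± 0.05), the tropomyosin gene TPM4 (-1.01 ± 0.03) and, higher, the adaptor subunit gene AP1M1 (0.28 ± 0.04). Lipid metabolism had 8 lower and 2 higher of 14 (median -0.36), where the lipid droplet gene PLIN3 had -0.70 ± 0.05.

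Immune and adhesion molecules had 12 lower and 3 higher of 16 (median -0.58). ICAM1, which binds leukocyte integrins and whose promoter above holds the NF-κB letters, had 58.7, 61.4 and 57.3 FPKM in WT and 39.1, 58.2 and 59.6 FPKM in Atg7KO cells at 0h, and 112, 109 and 97.7 against 59.4, 59.6 and 63.3 FPKM at 12h. Its lines overlapped at 0h (-0.18 ± 0.17, or 0.00 ± 0.05 without the untreated Atg7KO replicate 1) and were apart at 12h (-0.82 ± 0.04). The 3 called higher were C3, EBI3 and ADGRE5, the adhesion receptor CD97 (0.44 ± 0.07).

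The zinc finger genes, many of which encode repressors that recruit KAP1, were taken by symbol. The 43 tested genes with a ZNF symbol had a median of -0.63 at 0h, and the 41 tested at 12h had -0.39, whereas over all members the value was further from 0 at 12h. ZNF genes on the rest of chromosome 19 had medians of -0.11 and 0.09. The median interaction was 0.24 over ZNF genes of the stretch and 0.22 over those of the rest of the chromosome, and the members of lowest GC content had medians of -0.68 at 0h and -0.39 at 12h as well. Whether ZNF genes differ from other members in this was not tested. Many of these genes have close copies, so their reads may be split between them.

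The rule used position only, so properties of the genes it took in were compared. Tested members had a median transcript GC content of 59.9%, against 56.0% on the rest of chromosome 19 and 47.7% on the other chromosomes, and a median gene length of 3761 bases against 4038 and 4622. The genes tested were split by GC content into 3 classes of equal size. In each class the members' median stayed below those of both other sets. At 12h it was -0.39, -0.38 and -0.64 from the lowest to the highest class, where all genes had 0.10, 0.01 and -0.14. At 0h it was -0.68, -0.28 and -0.31, where all genes had -0.03, 0.00 and 0.06, and without the untreated Atg7KO replicate 1 the members had -0.68, -0.34 and -0.36. Split in the same way by gene length, from shortest to longest, the members' medians at 0h were -0.19, -0.40 and -0.51. All genes had 0.15, 0.02 and -0.12 there. At 12h the order was reversed, with -0.70, -0.57 and -0.36 for the members and -0.16, -0.02 and 0.14 for all genes. Members on the plus and minus strands had medians of -0.66 and -0.54 at 12h, and members in the highest of 3 classes of level had -0.59 with 94.4% below 0. A correction of every library for GC content moved the members' median from -0.33 to -0.38 at 0h and from -0.59 to -0.48 at 12h.

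The response to H2O2 is a change over time within a line and was not what the stretch was chosen on, although it uses the same libraries. A member was counted as responding at an adjusted p under 0.01 with a log2 fold change past 1 in size and a mean above 1 FPKM in either group. In WT cells 19 members rose and 13 fell of 409 tested (4.65 and 3.18%), where 7.30% of all genes rose and 5.24% fell. In Atg7KO cells 17 rose and 27 fell of 376 (4.52 and 7.18%), where 6.09% of all genes rose and 5.11% fell, and without the untreated Atg7KO replicate 1 these were 16 and 32. The median log2 change of the members was 0.04 in WT and -0.19 in Atg7KO cells. That of the rest of chromosome 19 was 0.01 and -0.09, and that of all genes -0.01 and -0.03. In Atg7KO cells the members' median was -0.13 without the untreated replicate 1 and -0.12 with a correction for GC content. The rest of the chromosome then had -0.04 and -0.03. The lines shared 6 members that rose, 31.6% of those in WT and 35.3% of those in Atg7KO cells, and 3 that fell, 23.1% and 11.1%. The overlap over all genes is not given beside these shares, so they do not show whether the members' overlap was low or usual.

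ANGPTL4, an inhibitor of lipoprotein lipase, rose most in WT cells. It had 0.185, 0.241 and 0.250 FPKM at 0h and 18.8, 18.7 and 17.1 FPKM at 12h in WT, and 0.733, 0.837 and 0.718 FPKM at 0h and 17.4, 16.9 and 17.0 FPKM at 12h in Atg7KO cells. The log2 change was 6.31 ± 0.15 in WT (edgeR adjusted p = 4.7e-36) and 4.48 ± 0.12 in Atg7KO cells (edgeR adjusted p = 3.0e-06). The lines overlapped at 12h and did not at 0h, where every value was below 1 FPKM, so the folds rest on low starting levels. KANK3, CYP4F2, a fatty acid hydroxylase, and GNA15, a G protein subunit, rose in both lines as well, from below 1 FPKM in every 0h library. At 12h KANK3 had 3.84, 3.96 and 3.72 FPKM in WT and 3.09, 3.54 and 2.71 FPKM in Atg7KO cells. CYP4F2 had 1.37, 1.14 and 1.37 FPKM in WT and 2.16, 2.0 and 1.83 FPKM in Atg7KO cells, and GNA15 1.42, 1.94 and 1.36 against 1.70, 2.10 and 1.61 FPKM. Their 0h levels rest on few reads, so no fold is given. TNFSF9, the 4-1BB ligand, rose from 4.48, 5.06 and 4.09 to 21.3, 22.5 and 20.5 FPKM in WT and from 5.03, 3.03 and 4.31 to 17.5, 16.2 and 15.8 FPKM in Atg7KO cells (2.23 ± 0.10 and 2.0 ± 0.18).

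Other members rose in WT cells alone by this count. JUNB had a log2 change of 1.94 ± 0.05 in WT (edgeR adjusted p = 5.4e-35) and -0.16 ± 0.13 in Atg7KO cells (edgeR adjusted p = 0.35). GADD45B had 1.57 ± 0.05 in WT (edgeR adjusted p = 2.1e-27) and -0.07 ± 0.16 in Atg7KO cells (edgeR adjusted p = 0.73). DNAJB1 had 1.67 ± 0.07 (edgeR adjusted p = 2.3e-10) and 0.26 ± 0.08 (edgeR adjusted p = 0.033). These are the promoters printed above, and the immediate early gene IER2 (1.25 ± 0.06 and -0.05 ± 0.12) and the transcription factor gene KLF2 (1.44 ± 0.11 and 0.55 ± 0.16) had the same order. ICAM1 had 0.84 ± 0.05 in WT, which is under the fold threshold, and 0.21 ± 0.17 in Atg7KO cells.

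Among the members that fell in both lines, SPC24, a kinetochore subunit, went from 18.3, 19.8 and 20.3 to 6.17, 5.06 and 8.48 FPKM in WT and from 25.8, 15.7 and 16.3 to 4.24, 4.12 and 4.12 FPKM in Atg7KO cells (-1.57 ± 0.17 and -2.21 ± 0.20). TNFAIP8L1 fell in both as well (-1.84 ± 0.09 and -1.91 ± 0.17), with a difference between the lines of -0.07 ± 0.19.

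The difference between the 2 responses was fitted as an interaction over all 12 libraries. It equals the line difference at 12h minus that at 0h, the comparisons that the stretch was chosen on, so its values are a description and nothing is read from their counts. It was called lower in Atg7KO cells for 59 of 419 members (14.1%) and higher for 13 (3.10%), where all genes gave 7.01% and 7.02%. The median difference was -0.25 over the members, -0.07 over the rest of chromosome 19 and -0.03 over all genes. Without the untreated Atg7KO replicate 1 the counts were 120 and 32, and without replicate 2 or 3 of that group 69 and 63 members were called lower. Without any 1 of the WT or treated Atg7KO libraries, between 32 and 40 were called lower and between 5 and 8 higher. The median followed GC content in every set, from 0.28 in the lowest to -0.35 in the highest GC class of the stretch, from 0.25 to -0.25 on the rest of the chromosome and from 0.12 to -0.24 over all genes. It followed gene length in every set as well, from -0.58 in the shortest to 0.19 in the longest class of the stretch. From the shortest to the longest class it ran from -0.39 to 0.17 on the rest of the chromosome and from -0.36 to 0.24 over all genes. After the correction for GC content, the counts were 30 lower and 22 higher and the members' median was -0.09. With a correction for gene length instead, the counts were 60 lower and 12 higher and the members' median was -0.20.

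**Figure D4:**
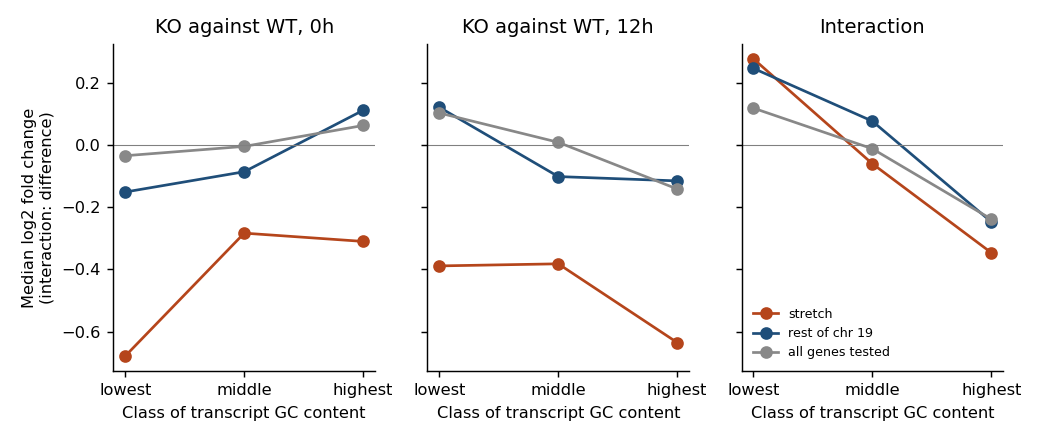
Median log2 fold change of Atg7KO against WT cells at 0h and 12h and median interaction (response in Atg7KO minus response in WT, log2) in 3 classes of transcript GC content, for the stretch, the rest of chromosome 19 and all genes tested; lines join the classes of a set. In both line comparisons the stretch lies below the other sets in each class, and in the interaction the sets fall together from the lowest to the highest class.

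The members with the largest named differences lay well beyond the median. The interaction was -2.10 ± 0.15 for JUNB, -1.64 ± 0.18 for GADD45B and -1.41 ± 0.12 for DNAJB1. With the GC correction it was -1.83 for JUNB and -1.48 for GADD45B, and without the untreated Atg7KO replicate 1 it was -1.94 and -1.44. UBL5 had -1.84 ± 0.36, with 80.7, 36.2 and 32.1 FPKM in the untreated Atg7KO replicates, and -1.30 without the first of these. ANGPTL4, which rose in both lines, had -1.83 ± 0.19. Of the 19 members that rose in WT, 11 had a lower response in Atg7KO cells at the same threshold and none a higher one. Their median log2 change was 1.67 in WT and 0.53 in Atg7KO cells. The choice of WT responders favours both these medians and that count, because the interaction subtracts the WT change. No count for all genes that rose in WT is given beside it, so nothing is read from it.

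Each of the 13 members with a higher response in Atg7KO cells had a level below WT at 0h, as did 81.6% of all members tested then. Both values use the same untreated libraries and the interaction subtracts the 0h difference, so nothing is read from this count. INSR had 5.65, 5.71 and 6.06 FPKM in WT and 1.99, 3.39 and 3.14 FPKM in Atg7KO cells at 0h, and 7.08, 7.71 and 6.86 against 8.32, 8.05 and 8.59 FPKM at 12h, with an interaction of 1.24 ± 0.20. GRIN3B, a glutamate receptor subunit (1.05 ± 0.16), the transcription factor gene ARID3A (0.89 ± 0.18) and MOB3A (0.75 ± 0.12) also had higher responses. SMARCA4 had a log2 change of -0.57 ± 0.04 in WT and 0.08 ± 0.13 in Atg7KO cells, an interaction of 0.65 ± 0.13.

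**Figure D5:**
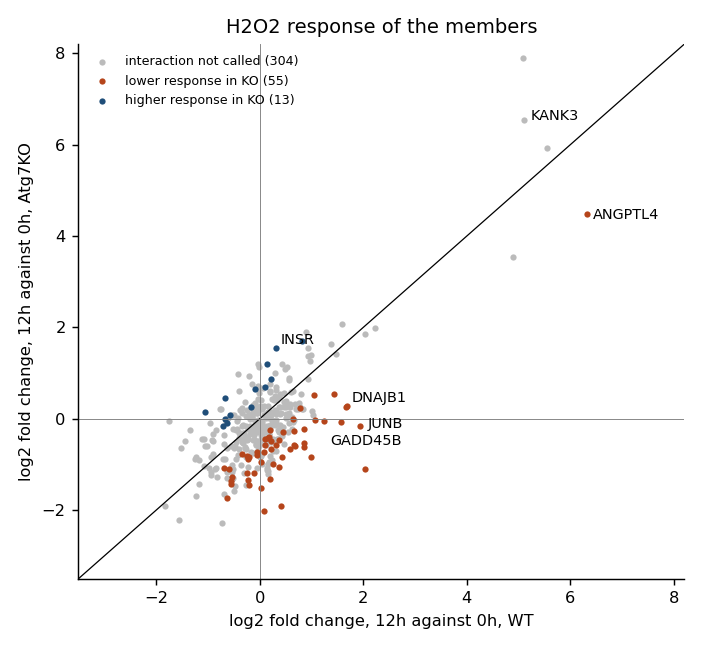
Log2 fold change from 0h to 12h with H2O2 in WT (horizontal) and Atg7KO cells (vertical) for the 372 members tested in both; the diagonal marks equal responses. Red points have a lower and blue points a higher response in Atg7KO cells by the interaction term (55 and 13 of those drawn). JUNB, GADD45B and DNAJB1 lie below the diagonal, INSR above it, and ANGPTL4 and KANK3 at the upper right.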

How the data were processed

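Total RNA of 12 libraries was sequenced, and samples were grouped by line and time from their labels. The authors deposited raw counts, whole numbers of reads per gene for 58735 genes, and FPKM values computed from them by gene length and library size. The submitters' processing notes name HISAT2 2.0.5 and featureCounts 1.5.0-p3. The strand setting and how reads with several matches were handled are not given in the sources used here.

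Counts were tested with edgeR 4.0.16 (limma 3.58.1, R 4.3.3): filterByExpr with a minimum count of 10, TMM scaling and a robust quasi-likelihood fit, 6 libraries per comparison and all 12 for the interaction, with Benjamini-Hochberg adjustment over all genes tested. Calls were an adjusted p under 0.01, and for H2O2 responses also a log2 fold change beyond 1 and a mean above 1 FPKM in either group. Standard errors came from the fold change and the test statistic. The code was tested on simulated data. GC content came from the longest GENCODE v29 transcript of each gene, and promoters from RefSeq GRCh38.p14.

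The members and the 11 role lists were chosen with earlier results of these data known. Of the members, 188 matched a role list, and a gene may be in more than 1. Genes were named as follows: the 10 lowest and 6 highest members at 12h above 1 FPKM in both lines, the 2 lowest and 1 highest of each role list above 5 FPKM in treated WT cells, the 4 tested genes on each side of each end, the 6 members that rose most and the 6 that fell most with H2O2 in WT, the 4 highest and 4 lowest interactions, and 20 fixed members. TNFSF9, IER2, KLF2, CERS4, UCA1, LINC01835, ZNF812P, TINCR, GNG7 and CAMSAP3 were named after their values were seen, and 2 members that the rule names are not reported here.

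Alternatives were DESeq2 1.42.0, RLE and upper quartile scaling, other filters, limma on log2 of FPKM plus 1 or plus 0.1, corrections for gene length and GC content by lowess (span 0.3), all 12 libraries, a replicate block and each library left out in turn. Deviations of same-numbered libraries from their group means correlated between -0.04 and 0.09 over 12 pairs. These values show no pairing by number, but they cannot exclude it, because deviations of single genes also hold counting noise. Whether same-numbered libraries were paired is not known, and the main fits did not pair them.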

Additional observations from a re-analysis of the deposited data

Results flagged for a closer look

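The response to H2O2 differed between the lines by the interaction term of edgeR, at an adjusted p under 0.01, for 30 of the members named, lower in Atg7KO than in WT cells for 25 and higher for 5. The term is built from the line differences at 0h and 12h, on which the stretch was chosen, so the number of members carries no weight of its own. On the log2 scale the largest differences were -4.72 for AC011511.5, -2.10 for JUNB, -1.84 for UBL5, -1.83 for ANGPTL4 and -1.64 for GADD45B. Lower responses were also -1.53 for STX10, -1.41 for both DNAJB1 and TMEM38A, -1.38 for RPS28, -1.30 for IER2, -1.27 for AMH, -1.26 for TIMM13, -1.25 for NRTN, -1.10 for FBXW9 and -1.07 for both CNN1 and LSM7. Smaller ones were -0.89 for KLF2, -0.88 for HMG20B, -0.81 for ICAM5, -0.73 for STK11, -0.68 for ASF1B, -0.62 for UBXN6, -0.56 for CALR, -0.41 for TPM4 and -0.40 for PLIN3. AC011511.5 was below 0.2 FPKM on average in all groups but treated WT cells, where it had 1.92, 2.12 and 1.61 FPKM, and its value rests on few reads. The value of ANGPTL4 rests on 0h levels below 1 FPKM in both lines. The response was higher in Atg7KO cells by 1.24 for INSR, 1.05 for GRIN3B, 0.89 for ARID3A, 0.75 for MOB3A and 0.65 for SMARCA4.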

How the results depend on the processing

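No value past its threshold changed sign under the alternatives run, but 49 values of 28 results that lay near 0 did, 39 of them at 0h. With the GC correction the members' median H2O2 response in WT went from 0.04 to -0.03 and the 12h line difference of the rest of chromosome 19 from -0.08 to 0.01. At 0h the line difference of JUNB went from 0.11 to -0.07 with the length correction, that of NOTCH3 from -0.26 to 0.05 without the untreated Atg7KO replicate 1, and that of RPS28 from -0.18 to 0.03 without replicate 3 of that group. The members' median log2 fold change at 0h was -0.36 relative to the rest of chromosome 19, -0.38 without a filter, -0.25 with limma on log2(FPKM + 1), -0.38 with the gene length correction and -0.38 with the GC correction, which was chosen after seeing the data. At 12h it was -0.51, -0.62, -0.40, -0.55 and -0.48 in the same order, and -0.63 with upper quartile scaling. Members lower at 0h numbered 99 with DESeq2, 73 with the length correction, 131 with all 12 libraries and 10 with the replicate block, and members higher numbered 3 with the replicate block and 2 with at least 10 counts in every library. The replicate block moved no other count of calls by over 1.5 times. Members higher at 12h numbered 11 with all 12 libraries. With limma on log2(FPKM + 1), 2 members fell in WT cells, and 14 fell and 10 rose in Atg7KO cells. With the GC correction 20 fell in WT cells. Interaction calls were 89 lower and 25 higher without a filter, and 30 and 22 with the GC correction. The cause was not tested. Leaving out 1 library gave 7 to 223 members lower and 2 to 10 higher at 0h, medians of -0.40 to -0.31 at 0h and -0.61 to -0.58 at 12h, 264 to 284 lower and 17 to 23 higher at 12h, 12 to 15 that fell and 17 to 22 that rose in WT cells, 18 to 32 that fell and 14 to 16 that rose in Atg7KO cells, and 32 to 120 lower and 5 to 32 higher for the interaction. Of 2678 values for single genes and medians under these alternatives, 2473 kept their call or moved by less than the replicate spread, 191 moved further and 14 lost their call, among them ARID3A and UBL5 in the interaction when 1 library was left out, with adjusted p between 0.010 and 0.012 in edgeR. With 3 libraries against 3, the spread between replicates limits the precision.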

Other observations

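The untreated Atg7KO replicate 1 had higher values than the other two replicates of its group for several short members and lower values for several long ones. RPS28 had 64.3 FPKM there against 32.0 and 27.8, GPX4 111 against 61.3 and 53.6, TIMM13 42.3 against 23.6 and 23.8, and UBL5 80.7 against 36.2 and 32.1. NOTCH3 had 2.03 FPKM there against 4.90 and 4.78, and INSR 1.99 against 3.39 and 3.14.

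The members lowest in untreated Atg7KO cells among those called were TINCR, an epidermal differentiation RNA (-4.28 ± 0.34), CERS4 (-3.36 ± 0.23), the G protein subunit gene GNG7 (-2.28) and CAMSAP3, which binds microtubule minus ends (-2.03). TINCR had 0.894, 0.970 and 1.22 FPKM in WT and 0.0548, 0.0253 and 0.0732 FPKM in Atg7KO cells at 0h.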
